A study of Mus musculus with 6 samples.

Results

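The PARP family was read in mouse kidney epithelial cells that were kept attached or held in suspension. Members were the rows of the authors' deposited table named exactly Parp1, Parp2, Parp3, Parp4, Parp8, Parp9, Parp10, Parp12 or Parp14, and 8 of these 9 names had such a row among 37757. Parp10 stood only in a row that it shares with Plec. The members were chosen by their FPKM in this same comparison, with its results known, so their changes are given as a description and their calls support nothing.

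All cells carried the genotype Bim-/- Bmf-/-, that is, both groups are labelled as lacking these BH3-only genes, which promote apoptosis. They were isolated from C57/Bl6J mice aged 8 weeks. Attached cells (3 libraries) were compared with cells held in suspension for 4 h (3 libraries, titled for anoikis, cell death after loss of anchorage). No group with intact death genes was analysed here, and the labels do not say whether the libraries came from separate cultures or animals, so p-values may measure technical spread only. The authors' deposited table gives 1 FPKM per gene and condition (fragments scaled to transcript length and library size), a log2 fold change, p and q. Its rows name the conditions by codes that end in A and S, and S was read as suspension. Spread between libraries cannot be given, and the depth is unknown.

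PARP enzymes take NAD, split off nicotinamide and attach ADP-ribose to proteins or nucleic acids. Parp1 and Parp2 build chains of ADP-ribose at broken DNA and so recruit repair factors, while most other members add single units, and Parp9 and Zc3hav1 lack this chain-building activity. Several members, Parp9, Parp10, Parp12 and Parp14 among them, are known as interferon-inducible genes in many cell types. Overactive Parp1 can drain NAD and is known in injured kidney tubules for a form of cell death.

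Of the 8 members with a row, 5 were called higher in suspension, 1 lower and 2 were left uncalled at the authors' q below 0.05, per the authors' deposited table. Among all 14748 tested rows 51.0% were called, 24.7% higher and 26.3% lower. Their median log2 fold change, from the authors' deposited table, was 0.62, against -0.04 over the 14616 tested rows above 0 in both conditions. All 8 were tested, so no filter on low values removed a member. The median over rows that reached 1 FPKM attached and suspended was -0.11. When that median was set to 0, the members' median was 0.72 and the uncalled values of Parp2 and Parp4 changed sign.

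**Figure D1:**
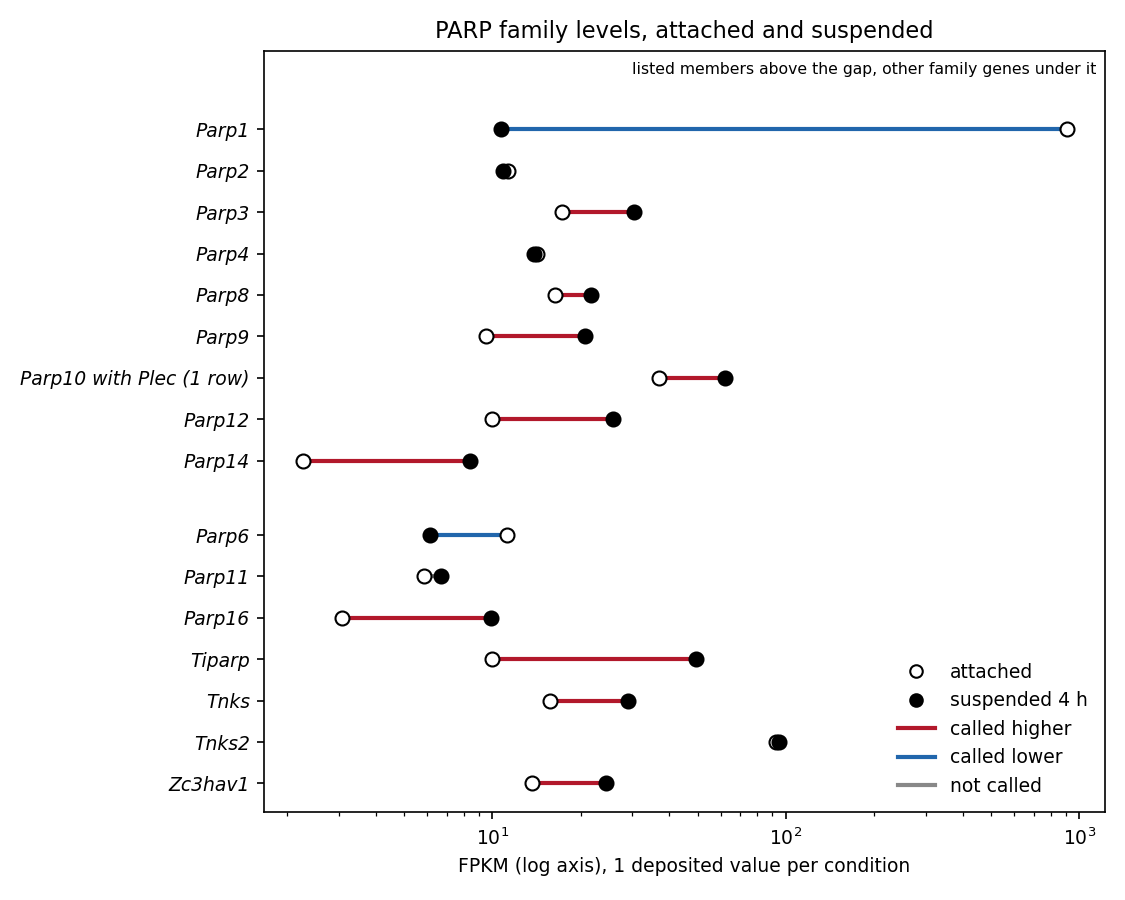
FPKM (log axis) of the PARP family as the authors' deposited table lists them, attached as open and suspended as filled circles, joined by a line in the colour of the call (1 value per condition; the listed members stand above the gap). Parp1 moved from 905 to 10.7 FPKM, while the other members with their own row stayed between 2.25 and 30.5 FPKM. The row shared by Parp10 and Plec reached 62.3 FPKM.

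Among the DNA-dependent members Parp1 was called lower, Parp2 was not called and Parp3 was called higher. Parp1 was in the authors' deposited table at 905 FPKM attached and 10.7 FPKM suspended (log2 fold change -6.40, 84.5-fold lower, q = 0.000185). This q is the smallest listed, and 4278 tested rows share it. The log2 fold change of Parp1 was the lowest of the 14616 tested rows above 0 in both conditions. In order of FPKM Parp1 was row 45 of the tested rows attached and row 7017 suspended. Parp2, which shares the break-sensing role of Parp1, was in the authors' deposited table at 11.3 and 10.9 FPKM (q = 0.80). Parp3, which acts with the repair of double-strand breaks, went in the authors' deposited table from 17.2 to 30.5 FPKM (log2 fold change 0.82, q = 0.000185). Suspended cells thus had Parp1 and Parp2 at near equal FPKM, with Parp3 above both.

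The Parp1 gene (chromosome 1, positions 180568924 to 180601254, plus strand, GRCm38) holds the microRNA gene Mir6904, whose part in the value of the Parp1 row, if any, is not known. The sequences are shown because the hairpin runs from intron 8 into exon 9 of the 23 exons of Parp1, and its 3p arm ends on the last intron base, 180587260. In the hairpin (chr1:180587201-180587267, plus strand, RefSeq, GRCm38.p6) capitals mark the 7 bases inside the exon, and in the mature arms they mark the seed, bases 2 to 8.
Mir6904 hairpin: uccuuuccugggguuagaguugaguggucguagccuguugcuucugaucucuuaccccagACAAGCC
mmu-miR-6904-5p: uCCUGGGGuuagaguugagugg
mmu-miR-6904-3p: uCUGAUCUcuuaccccag
Mir6904 had no row of its own in the authors' deposited table. Of 170 annotated microRNAs that touch an exon of a protein-coding gene on the same strand, 14.7% were named in the authors' deposited table, against 85.4% of 520 that lie only in introns. Whether reads of Mir6904 were counted in the Parp1 row was not tested.

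Genes with a row at 5 FPKM or more in the higher condition were also split by the microRNAs they hold. Of 115 hosts of a microRNA that touches an exon, the authors' deposited table called 2 lower by 8-fold or more, namely Parp1 and Ercc2. None of 249 hosts with microRNAs only in introns was called so, and 25 of 8378 genes without an annotated microRNA were (0.298%). The 2 of 115 make up 1.74%, and this is a count without a test. Parp1 prompted the split and is 1 of the 2, so the shares support nothing. Higher by 8-fold or more were 0 of the 115 hosts and 66 of the 8378 genes without a microRNA. The share called in either direction was 57.4% among the 115 hosts and 59.8% among genes without a microRNA.

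The neighbours of Parp1 on the chromosome did not fall with it. Itpkb, 144121 bases before Parp1, went in the authors' deposited table from 2.15 to 4.41 FPKM (q = 0.000185). Lin9, 39895 bases after it, was in the authors' deposited table at 9.08 and 9.79 FPKM (q = 0.52).

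Parp4 belongs to the vault, a large ribonucleoprotein particle. It was in the authors' deposited table at 14.2 and 13.9 FPKM (q = 0.86). Its vault partner Tep1, which lies 2757 bases after Parp2 on chromosome 14, was also not called, at 4.72 and 4.53 FPKM (q = 0.75), per the authors' deposited table. Mvp, the major vault protein, stood in a row naming several genes and is not given alone. Parp8, a member that adds single ADP-ribose units, went in the authors' deposited table from 16.3 to 21.7 FPKM (log2 fold change 0.41, q = 0.00157). This was the smallest change among the called members.

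**Figure D2:**
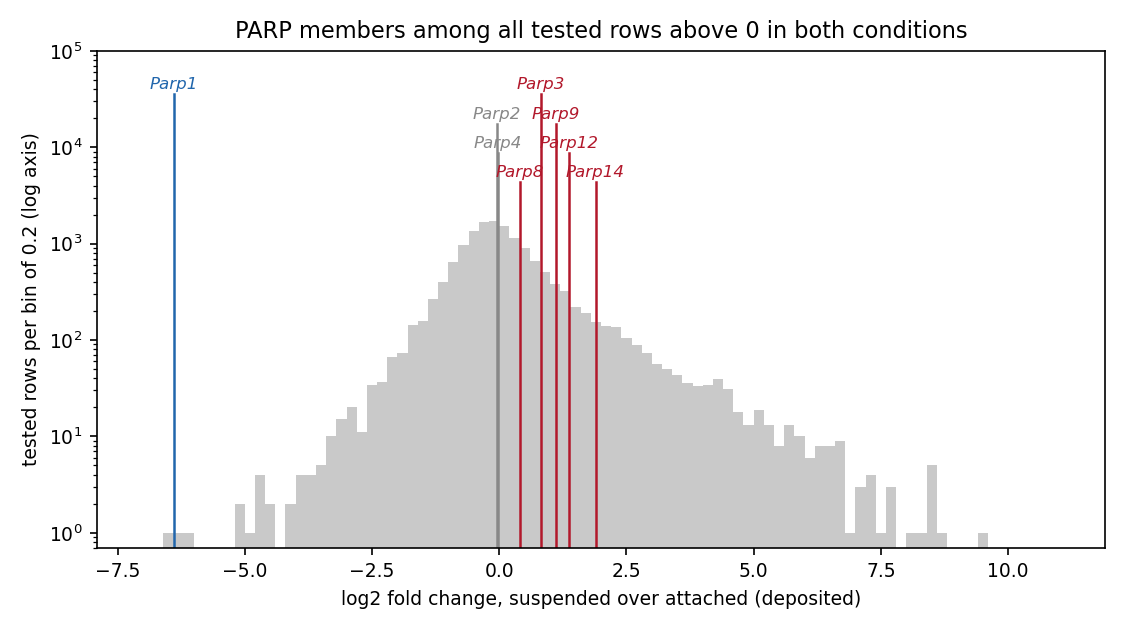
Counts of the tested rows above 0 in both conditions by log2 fold change (suspended over attached, authors' deposited table; log axis of counts), with a line at each member that has a row of its own, coloured by call. Parp1 lies at the lower end at -6.40, Parp2 and Parp4 lie near 0, and the called higher members lie between 0.41 and 1.89.

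Parp14, Parp12 and Parp9 rose most of the members. Parp14, which carries macrodomains that bind ADP-ribose and is known as a cofactor of Stat6, went in the authors' deposited table from 2.25 to 8.37 FPKM (log2 fold change 1.89, 3.71-fold, q = 0.000185). Parp12, with CCCH zinc fingers that bind RNA, went in the authors' deposited table from 9.95 to 25.8 FPKM (log2 fold change 1.38, 2.60-fold, q = 0.000185). Parp9 went in the authors' deposited table from 9.54 to 20.7 FPKM (log2 fold change 1.12, 2.17-fold, q = 0.000185). These were the only members that were both called higher and at least 2-fold, a rule that 12.4% of tested rows met. The row shared by Parp10 and Plec, a linker of the cytoskeleton, went in the authors' deposited table from 36.9 to 62.3 FPKM (q = 0.000185). These 2 genes overlap by 1401 bases on the same strand, and their parts in the row cannot be told apart.

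Parp9 acts with the ubiquitin ligase Dtx3l, and the 2 genes start next to each other on opposite strands of chromosome 16. Dtx3l (positions 35926511 to 35939151, minus strand) and Parp9 (positions 35938470 to 35972605, plus strand) overlap by 682 bases in GRCm38. Dtx3l went in the authors' deposited table from 4.75 to 11.3 FPKM (log2 fold change 1.25, q = 0.000185). Both partners therefore about doubled, and Parp14 lies 66.9 kb before Parp9 in the same region (positions 35832874 to 35871544, minus strand). Of the other tested genes drawn around them, chosen after their values were seen, Hspbap1, between Dirc2 and Parp14, was in the authors' deposited table at 3.97 and 4.26 FPKM (q = 0.60). Dirc2, on its far side, rose in the authors' deposited table from 17.2 to 43.8 FPKM (log2 fold change 1.35, q = 0.000185), a larger change than that of Dtx3l or Parp9. Kpna1, an importin on the far side of Parp9, fell in the authors' deposited table from 23.9 to 10.1 FPKM (q = 0.000185). Wdr5b, Fam162a and Ccdc58, farther on, were not called, so genes of the region were called in both directions or not at all.

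**Figure D3:**
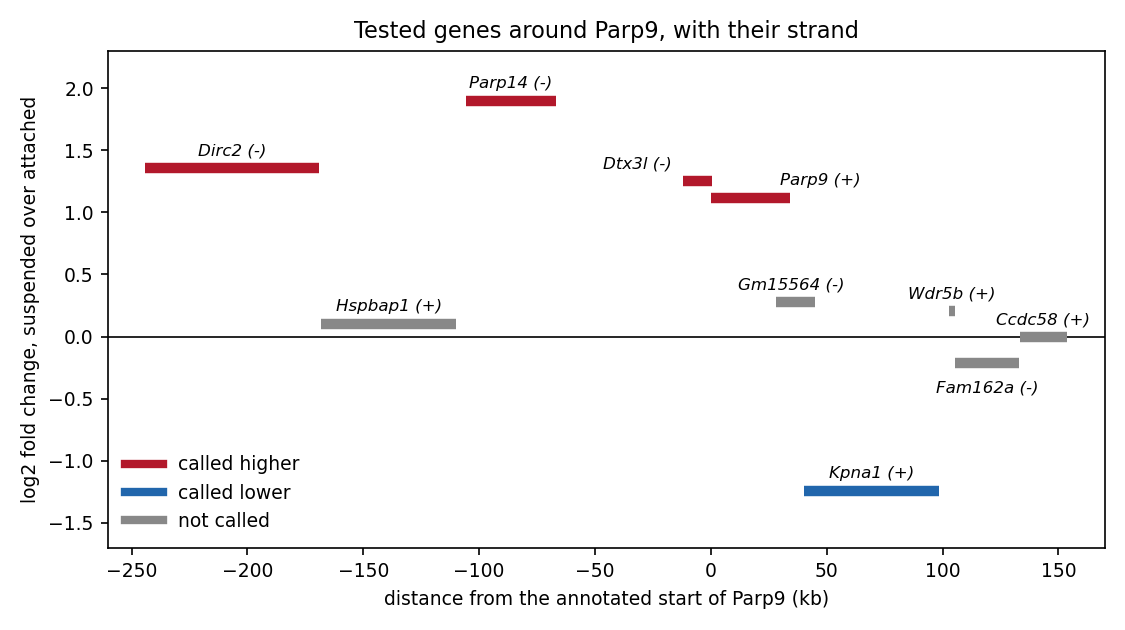
Tested genes by distance from the annotated start of Parp9 (kb, bars span the annotated gene, strand in brackets) and by log2 fold change (suspended over attached, authors' deposited table), coloured by call. Parp14, Dtx3l and Parp9 lie at 1.89, 1.25 and 1.12, Dirc2 lies at 1.35, Hspbap1 lies at 0.10, and Kpna1 lies at -1.24.

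Some member values carry the uncertainty of overlapping genes, since whether strand was counted is not given in the sources used here. Parp3 (chromosome 9, positions 106470322 to 106476949) overlaps Rrp9 on the other strand by 987 bases, and Rrp9 was in the authors' deposited table at 14.2 and 9.79 FPKM (q = 0.0624). Parp3 was called higher and Rrp9 was not called, and whether they share reads was not tested. Parp9 also overlaps the antisense RNA Gm15564 by 5854 bases (9.63 and 11.7 FPKM, q = 0.83, as the authors' deposited table lists it). Parp4 overlaps the antisense RNA Gm16573, which was in the authors' deposited table at 0.389 and 0.101 FPKM (q = 0.24). On its own strand Parp14 overlaps Gm49730, an unclassified annotated transcript, by 1773 bases. Gm49730 had no row of its own, and its part in the Parp14 value was not tested. The remaining members with a row overlap no annotated gene on the other strand.

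The 7 other genes of the family were also mixed in their calls, 4 higher, 1 lower and 2 not called, per the authors' deposited table, where 24.7% of all tested rows were called higher and 26.3% lower. Tiparp, a mono-ADP-ribosyltransferase that limits the aryl hydrocarbon receptor, rose in the authors' deposited table from 9.93 to 49.6 FPKM (4.99-fold, q = 0.000185). Parp16, a membrane protein of the endoplasmic reticulum, rose in the authors' deposited table from 3.07 to 9.91 FPKM (3.23-fold, q = 0.000185). Tnks, a tankyrase, which builds chains, rose in the authors' deposited table from 15.7 to 29.0 FPKM, whereas its relative Tnks2 stood at 92.7 and 94.9 FPKM (q = 0.85, same table). Zc3hav1, an antiviral RNA-binding protein, rose in the authors' deposited table from 13.6 to 24.3 FPKM (q = 0.000185). Parp6 was the one gene called lower here, at 11.2 and 6.15 FPKM (q = 0.000185), and Parp11 was not called (5.87 and 6.70 FPKM, q = 0.48, as the authors' deposited table lists it).

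FPKM are scaled by length, so levels can be ordered between genes, although without a spread between libraries close neighbours cannot be separated. In attached cells Parp1 was first of the 15 family genes with a row, followed by Tnks2, Parp3 and Parp8, and Parp14 was last (authors' deposited table). In suspended cells the order was led by Tnks2, Tiparp, Parp3 and Tnks, Parp1 was number 11 and Parp6 was last (authors' deposited table). The summed level of the 15 rows was 1138 FPKM attached and 363 suspended, of which Parp1 made up 79.5% and 2.95%. Without Parp1 the sum went the other way, from 233 to 352 FPKM. The direction of the summed family level therefore rests on 1 row, that of Parp1. The part of Mir6904 in its value, and so in its rank and share, was not tested.

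Promoter sequences from RefSeq (GRCm38.p6, 250 bases before to 50 after the start) were matched for 6 members (not Parp9, Parp10 or Parp14) and for 12 family genes in all. Upstream bases of Parp1 and Parp12 are shown since one gene fell and the other rose, with capitals at each CG pair. The first is chr1:180568641-180568890 on the plus strand, and the second is chr6:39118350-39118599 on the minus strand, of which 127 bases are also an exon of the noncoding RNA 4930599N23Rik.
Parp1 upstream: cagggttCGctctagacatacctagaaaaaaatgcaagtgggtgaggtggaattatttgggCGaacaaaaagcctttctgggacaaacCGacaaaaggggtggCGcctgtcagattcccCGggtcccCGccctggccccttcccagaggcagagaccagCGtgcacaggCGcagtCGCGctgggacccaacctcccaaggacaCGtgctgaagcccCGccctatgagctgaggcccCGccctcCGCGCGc
Parp12 upstream: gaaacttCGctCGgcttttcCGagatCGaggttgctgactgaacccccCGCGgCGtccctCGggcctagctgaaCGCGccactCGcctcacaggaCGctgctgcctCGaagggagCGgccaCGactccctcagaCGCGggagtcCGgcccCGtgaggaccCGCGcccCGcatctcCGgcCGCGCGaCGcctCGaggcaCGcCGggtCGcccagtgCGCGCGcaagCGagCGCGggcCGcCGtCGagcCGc
The Parp1 stretch holds 16 CG pairs and the Parp12 stretch 41. Over the whole 300 bases, 32851 promoters had a median of 7 CG pairs, against 20 in Parp1, 46 in Parp12, 37 in Parp8, 25 in Parp2, 17 in Parp4 and 16 in Parp3. All 6 members with a promoter thus lay above that median, whether they were called higher, lower or not at all. No median over tested genes alone is given, so this is not shown to be particular to the members.

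The promoters were also searched on both strands for the core of the interferon-stimulated response element (GAAA, any 2 bases, GAAA) and for TTCNNNGAA, the STAT site. The first was held by 2 of the 12 family genes, Parp4 and Parp11, and by 3.44% of all 32851 promoters. The second was held by Parp11 and Parp16 and by 8.30% of all promoters. The Parp4 stretch (chr14:56575449-56575504, plus strand) is shown because the gene was not called, with capitals at 2 overlapping matches that run from 150 to 135 bases before the start.
Parp4 stretch: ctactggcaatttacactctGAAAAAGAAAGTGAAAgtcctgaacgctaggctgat
Neither motif was found in the windows of Parp1, Parp2, Parp3, Parp8, Parp12 or Dtx3l, which says only that these letters are not there.

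Genes that work with the members were read from fixed lists. Of 13 tested partners and readers of ADP-ribose 2 rose and 4 fell in the authors' deposited table (median log2 fold change -0.06). These are 15.4% and 30.8%, near the 24.7% and 26.3% of all tested rows. Besides Dtx3l, Rnf146, a ubiquitin ligase that binds ADP-ribose chains, rose in the authors' deposited table from 21.5 to 30.8 FPKM (q = 0.000355). Aifm1, a mitochondrial protein that carries out Parp1-dependent death, fell in the authors' deposited table from 54.9 to 21.4 FPKM, and Timeless, a Parp1 partner in replication, from 6.03 to 3.65 FPKM (both q = 0.000185). The cofactor of Parp1 and Parp2, Hpf1, under its older name in the table, was in the authors' deposited table at 19.1 and 20.3 FPKM (q = 0.67). The genes next to Parp1 in its pathway therefore did not share its fold.

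Erasers remove or break down ADP-ribose. Of 9 tested erasers 1 rose, 3 fell and 5 were not called, per the authors' deposited table (median log2 fold change -0.15), and Adprhl1 was not tested. With 4 of 9 called, against 51.0% of all tested rows, the list was near the background. Parg, which degrades the chains, was in the authors' deposited table at 16.1 and 14.5 FPKM (q = 0.45). Adprh, which removes ADP-ribose from arginine, rose in the authors' deposited table from 16.4 to 21.8 FPKM (q = 0.00489). Oard1 (22.1 to 15.8 FPKM, q = 0.00199), Nudt5 (35.7 to 23.3 FPKM, q = 0.00308) and Nudt9 (24.2 to 17.6 FPKM, q = 0.00185) fell in the authors' deposited table. None of these calls reached 2-fold.

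Repair of single-strand breaks and damaged bases, in which Parp1 acts at broken DNA, had 2 of 19 genes higher, 7 lower and 10 not called, per the authors' deposited table (median log2 fold change -0.44). The 36.8% lower stand beside 26.3% of all tested rows, and 9 of 19 called in either direction are near the overall 51.0%. Tdp1, which clears trapped topoisomerase from DNA ends, fell in the authors' deposited table from 10.5 to 2.68 FPKM (q = 0.000185). Xrcc1, the scaffold recruited by ADP-ribose chains, fell in the authors' deposited table from 24.9 to 15.5 FPKM, and the ligase Lig1 from 17.7 to 11.2 FPKM (both q = 0.000185). Nthl1, a glycosylase for oxidised bases, fell in the authors' deposited table from 9.60 to 6.59 FPKM (q = 0.00199). Among rows that reached 1 FPKM attached and suspended, 22.5% were called higher, and there 1 repair gene was. Only 2 of the 7 lower calls reached 2-fold, a rule that 7.12% of tested rows met in that direction.

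NAD is the substrate of every PARP that is active. All 9 tested genes of the list for its synthesis were called, 6 higher and 3 lower, in the authors' deposited table (median log2 fold change 0.50). Over all tested rows 24.7% were higher and 26.3% lower. The list also holds the NAD kinases Nadk (called lower) and Nadk2 (called higher), which use NAD to make NADP. Its counts and median are therefore not of genes that make NAD alone. With at least 1 FPKM in both conditions, 4 of the list were called higher. Nmnat2 and Naprt, both called higher, stood at 0.164 and 0.833 FPKM attached. Nampt, the rate-limiting enzyme of the salvage route that reuses nicotinamide, rose in the authors' deposited table from 16.8 to 46.4 FPKM (2.76-fold, q = 0.000185). Nadsyn1, which makes NAD from its acid form, rose in the authors' deposited table from 2.57 to 5.19 FPKM (q = 0.000185). Nmnat3, a mitochondrial enzyme of the last step, fell in the authors' deposited table from 12.9 to 4.32 FPKM, and the NAD kinase Nadk from 43.7 to 26.4 FPKM (both q = 0.000185). A further 4 genes were too low to be tested. The list of other NAD consumers split into 3 higher and 3 lower of 10, near the shares of all tested rows (24.7% and 26.3%). Its lower calls include Nnmt, which methylates nicotinamide and does not itself consume NAD. Sirt1 (6.94 to 16.8 FPKM, q = 0.000185) and Sirt6 (9.80 to 14.3 FPKM, q = 0.00576), both deacylases of the nucleus, rose in the authors' deposited table. Sirt4 of the mitochondria fell in the authors' deposited table from 7.20 to 2.63 FPKM, and Bst1 of the cell surface from 14.2 to 5.94 FPKM (both q = 0.000185).

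**Figure D4:**
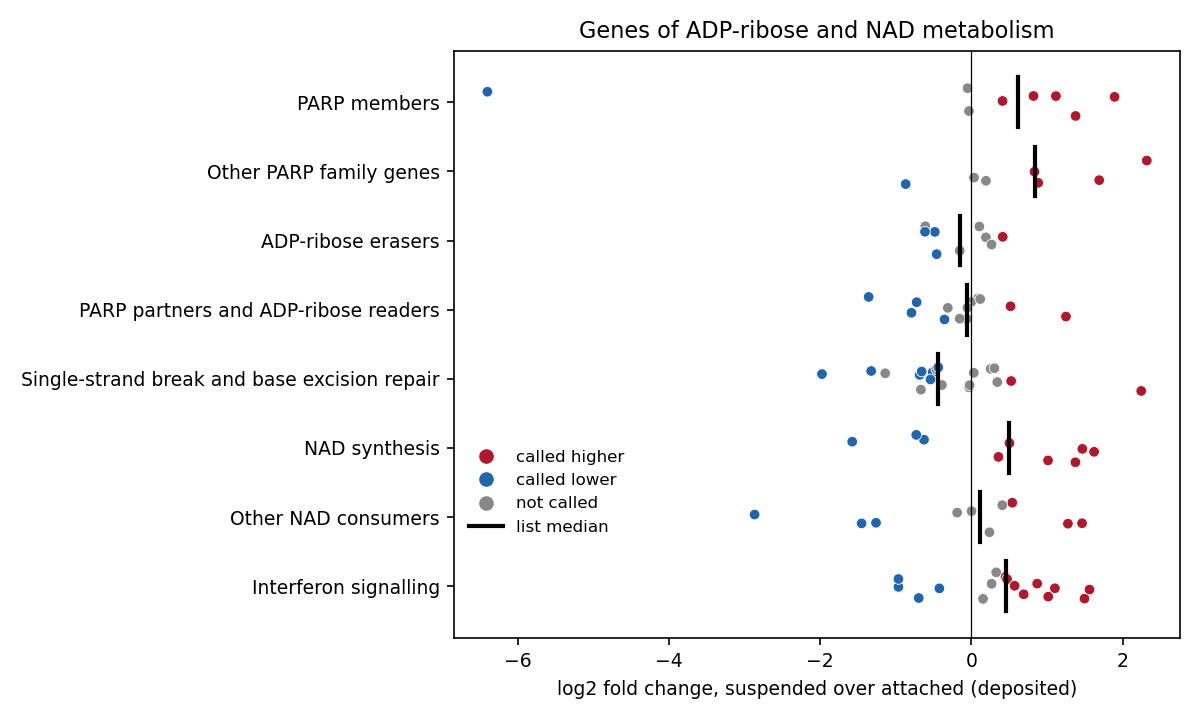
Log2 fold change (suspended over attached) of each tested gene of the PARP family and of 6 related lists in the authors' deposited table, in the colour of its call, the black bars being list medians. Parp1 stands alone at the far left at -6.40, and list medians lie between -0.44 and 0.83.

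Interferon signalling genes were read beside the members known to respond to interferon. Of 16 tested, 9 were higher, 4 lower and 3 not called, per the authors' deposited table (median log2 fold change 0.46). Over all tested rows 24.7% were higher and 26.3% lower. The transcription factors Irf1 (5.03 to 14.2 FPKM, q = 0.000185), Irf2 (14.2 to 30.6 FPKM, q = 0.000185) and Irf7 (4.06 to 8.20 FPKM, q = 0.0353) rose in the authors' deposited table. Ifngr2, a receptor chain, rose in the authors' deposited table from 27.5 to 81.1 FPKM (q = 0.000185), whereas its partner chain Ifngr1 fell from 71.0 to 43.8 FPKM (q = 0.000185). The others called lower there were Irf3 (49.1 to 25.1 FPKM, q = 0.000185), a transcription factor, the kinase Jak2 (16.3 to 12.2 FPKM, q = 0.000355) and the inhibitor Socs1 (3.36 to 1.72 FPKM, q = 0.00128). Stat2, a signal carrier of the interferon receptors, rose in the authors' deposited table from 4.16 to 6.71 FPKM (q = 0.000185). The partner of Parp14, Stat6, was in the authors' deposited table at 34.6 and 41.6 FPKM (q = 0.0891). Whether interferon signalling had a part in the rise of Parp9, Parp12 and Parp14 was not tested.

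The cells carried kidney epithelial markers in both conditions: 8 of 9 were tested, Krt8, Krt18, Cdh16, Epcam and Cdh1 stood above 95 FPKM, and Lhx1 was near 0 (authors' deposited table). Leukocyte markers summed to 71.1 FPKM attached and 90.7 suspended, of which Cd68 and Cd14 made up most, and 5 of 9 were too low to be tested, Adgre1 being listed at 0 attached (authors' deposited table). Of the 4 tested, 3 rose in the authors' deposited table: Ptprc from 1.42 to 12.4 FPKM (q = 0.000185), Csf1r from 0.729 to 3.25 FPKM (q = 0.0271) and Cd68 from 23.4 to 34.9 FPKM (q = 0.000185). Endothelial and stromal markers summed to 3.48 and 3.32 FPKM, and 7 of 9 were too low to be tested. The other two moved apart in the authors' deposited table: Pdgfra rose from 0.155 to 1.81 FPKM and Acta2 fell from 2.90 to 1.10 FPKM (both q = 0.000185). The summed FPKM of mitochondrial rows, a sign of RNA quality, was 31198 attached and 68368 suspended. The part of these shifts in the members' values was not tested. In bulk RNA, fewer cells of a type and less RNA per cell cannot be told apart.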

How the data were processed

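Messenger RNA of 6 libraries was sequenced (HiSeq, per the labels' protocols). The submitters' processing notes name TopHat, Bowtie, Cufflinks 1.0.3, Cuffdiff and mm10, without their settings or the annotation. The deposited FPKM are the authors' value for each condition. The file headers also name columns that the authors deposited for their own comparison: a log2 fold change, a test statistic (a score), and p-values with q-values. Log2 ratios recomputed from FPKM differed from the deposited ones by at most 4.02e-05.

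Calls are the authors' q below 0.05, and no test was run on libraries. Members and gene lists were chosen with earlier results of these data known. Named were all PARP genes, neighbouring and overlapping genes, genes given for a role in the lists, and up to 4 called genes per list with the largest change and at least 5 FPKM. Others in the text, such as Parg, Hpf1, Stat2, Jak2 and Tep1, were added for their roles or calls after values were seen. Of the tested names 13522 were found in GENCODE M21 (GRCm38), which is the source of gene positions, and 13517 overlapped the deposited position. An approximate standard error was taken from the authors' p and log2 fold change, for p above the smallest (5e-05) and below 0.9: its median was 0.29 at a mean of 1 to 5 FPKM, 0.16 at 5 to 20 and 0.13 at 20 to 100. Calculations were tested on simulated data. The software was matplotlib 3.10.9, pandas 2.3.3, SciPy 1.17.1, NumPy 2.4.6 and Python 3.11.15.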

Additional observations from a re-analysis of the deposited data

How the results depend on the processing

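No paired analysis was possible because the table holds conditions and not libraries, and leaving out a replicate was not run for the same reason. Of 195 recomputed values of 25 results, 174 stayed the same, 17 moved, 2 reversed and 2 lost their call. Many of these could not change, so the 174 do not measure robustness. Counts of calls rest on the deposited q or p, which a pseudocount does not alter. A cutoff on q or fold leaves a median or a log2 fold change as it is. A 2-fold minimum moved most: it left 3 members called higher and, among the other lists (higher and lower counts), 2 and 0 of the other PARP genes, 0 and 0 erasers, 1 and 1 partners and readers, 1 and 2 repair genes, 4 and 0 interferon signalling genes, and 1 lower NAD synthesis gene. Parp3 (0.82) and Parp8 (0.41) kept their log2 fold change but lost the call under it. With at least 1 FPKM in both conditions, 1 repair gene was called higher. The members' median was 0.72 with the median of all such rows set to 0, 0.76 with the Parp10 and Plec row included and, as an alternative chosen after seeing the data, 0.82 without Parp1, which left 0 members called lower. Centring turned Parp2 to 0.0573 and Parp4 to 0.0759, both uncalled. The log2 fold change of Parp1 was -6.27 with a pseudocount of 1 FPKM. Depth is unknown, so what it limits cannot be stated.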

Other observations

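A few genes of the fixed lists changed by more than 2-fold below the level required for naming, and were picked after their values were seen. Nnmt, which methylates nicotinamide, fell in the authors' deposited table from 4.59 to 0.629 FPKM (q = 0.000185). Neil2, a glycosylase of base excision repair, rose in the authors' deposited table from 0.894 to 4.24 FPKM (q = 0.000185), while most called repair genes fell. Naprt, listed under its older symbol, which starts NAD synthesis from nicotinic acid, rose in the authors' deposited table from 0.833 to 2.56 FPKM (q = 0.000185). Cd38, an NAD-consuming enzyme of the cell surface, rose in the authors' deposited table from 0.382 to 1.05 FPKM (q = 0.000185), the opposite direction to its relative Bst1. Ung, which removes uracil from DNA, fell in the authors' deposited table from 4.45 to 1.78 FPKM (q = 0.000185).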
